A study of Mus musculus with 24 samples.

Results

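The genes described here are 10 genes of calcium handling in the cardiomyocyte: Atp2a2, Pln, Sln, Ryr2, Trdn, Casq1, Casq2, Hrc, Jph2 and Slc8a1. They were taken by gene symbol from 2 deposited tables of expression in neonatal mouse hearts, after their Ensembl identifiers had been matched to GENCODE M21. All 10 were among the 15667 genes listed for uninjected hearts. Of these, 9 were among the 15327 genes listed for virus-injected hearts, where Sln was not listed.

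With each heartbeat, calcium that enters through voltage-gated channels opens the ryanodine receptor of the sarcoplasmic reticulum (SR), and the released calcium starts contraction. The SERCA pump then returns calcium to the SR, where calsequestrin binds it, and the sodium-calcium exchanger carries the rest out of the cell. In the mouse heart this machinery matures in the first weeks after birth, when the SR and the T-tubules come to face each other in dyads.

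Xinβ, the product of Xirp2, is an actin-binding protein of the intercalated disc, and the study asked how its loss changes gene expression in the postnatal heart and whether active YAP changes it back. RNA was sequenced from 24 hearts at postnatal day 7.5, with 4 hearts in each of 6 groups: uninjected WT and XinβKO, and WT or XinβKO hearts injected on postnatal day 1 with AAV9 carrying GFP (WT/GFP and XinβKO/GFP) or YAP S127A (WT/YAP S127A and XinβKO/YAP S127A). XinβKO is a germline replacement of part of Xirp2 by a LacZ-Neo cassette on a C57BL6 background, so every cell type of the heart carried it. Both transgenes were driven by the cardiac troponin T promoter, which is active in cardiomyocytes, and YAP S127A is a human YAP that escapes inhibition by the Hippo kinases. The labels give the tissue as the apex of the heart, whereas the methods give the ventricles. The uninjected and the injected hearts were sequenced separately, in 50 bp single-end and 150 bp paired-end reads, so no test was made between them.

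The libraries held 20490875 to 31154155 reads, as recovered from the deposited values, on listed genes in the uninjected hearts and 15015038 to 19444404 in the injected hearts. Xirp2 was at 106 to 168 CPM (read counts scaled to library size) in uninjected WT hearts and at 0.291 to 0.692 CPM in XinβKO hearts, and at 56.0 to 149 CPM in injected WT hearts and 0 to 0.972 CPM in injected XinβKO hearts, as labelled. All 12 muscle markers of the ventricle and of the whole heart were listed, with summed levels of 64372 to 110130 CPM. Of these, Tnnt2 was called higher in XinβKO than in WT hearts, by 0.60 on the log2 scale (limma, adjusted p = 0.045). The 12 markers summed to 76461 to 86980 CPM in WT and 82991 to 110130 CPM in XinβKO. In XinβKO/GFP against WT/GFP hearts Tnnt2 (0.65), Myh7 (0.79) and Ckm (0.29) were called higher, and in XinβKO/YAP S127A against XinβKO/GFP hearts the same 3 genes were called lower (-0.62, -0.97 and -0.53). The other 9 were not called in either comparison: 8 of the 12 were positive in the first (median 0.041) and 4 of the 12 in the second (median -0.084), and abundant Actc1 had means of 11176 CPM in WT/GFP, 9314.5 CPM in XinβKO/GFP and 11924 CPM in XinβKO/YAP S127A hearts. Sums of all 12 were 64372 to 80510 CPM in WT/GFP, 73780 to 85283 CPM in XinβKO/GFP and 70111 to 74030 CPM in XinβKO/YAP S127A hearts, and the part of these markers in the values below was not tested. In bulk tissue, fewer cells of a type and less RNA per cell cannot be told apart. Summed fibroblast markers (7 of 7 listed) were at 2103.9 to 3504 CPM in XinβKO/GFP hearts against 4518 to 5330.0 CPM in WT/GFP hearts, and at 4875 to 5863 CPM in XinβKO/YAP S127A hearts. They were at 2458 to 3793 CPM in uninjected XinβKO against 5019 to 5250.2 CPM in WT hearts. Summed markers of proliferating cells (7 of 7 listed) were at 51.5 to 303 CPM in XinβKO/GFP, 351 to 447 CPM in WT/GFP and 311 to 351 CPM in XinβKO/YAP S127A hearts, and at 50.1 to 478 CPM in uninjected XinβKO against 362 to 485 CPM in WT hearts. Of 8 leukocyte markers, 2 (S100a8 and S100a9) were called higher and 4 lower in XinβKO/GFP than in WT/GFP hearts, and 2 lower and 3 higher in XinβKO/YAP S127A than in XinβKO/GFP hearts. Of 6 endothelial markers, 1 (Fabp4) was called higher and 3 lower in the first of these comparisons, and 1 lower and 2 higher in the second. Of 7 smooth muscle and pericyte markers, 1 was called lower in the first and 3 higher in the second, Acta2 by 1.26 on the log2 scale. In uninjected XinβKO against WT hearts, calls were 2 higher and 2 lower among leukocyte, 1 higher and 1 lower among endothelial, and 1 lower among smooth muscle markers. The part of these cell types in the differences below was not tested. Values are CPM as deposited. Each test was made in limma on log2(CPM + 1), a scale that understates the change of weakly expressed genes, and a gene is called where its p-value, adjusted over all tested genes by the Benjamini-Hochberg method, was under 0.05.

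**Figure D1:**
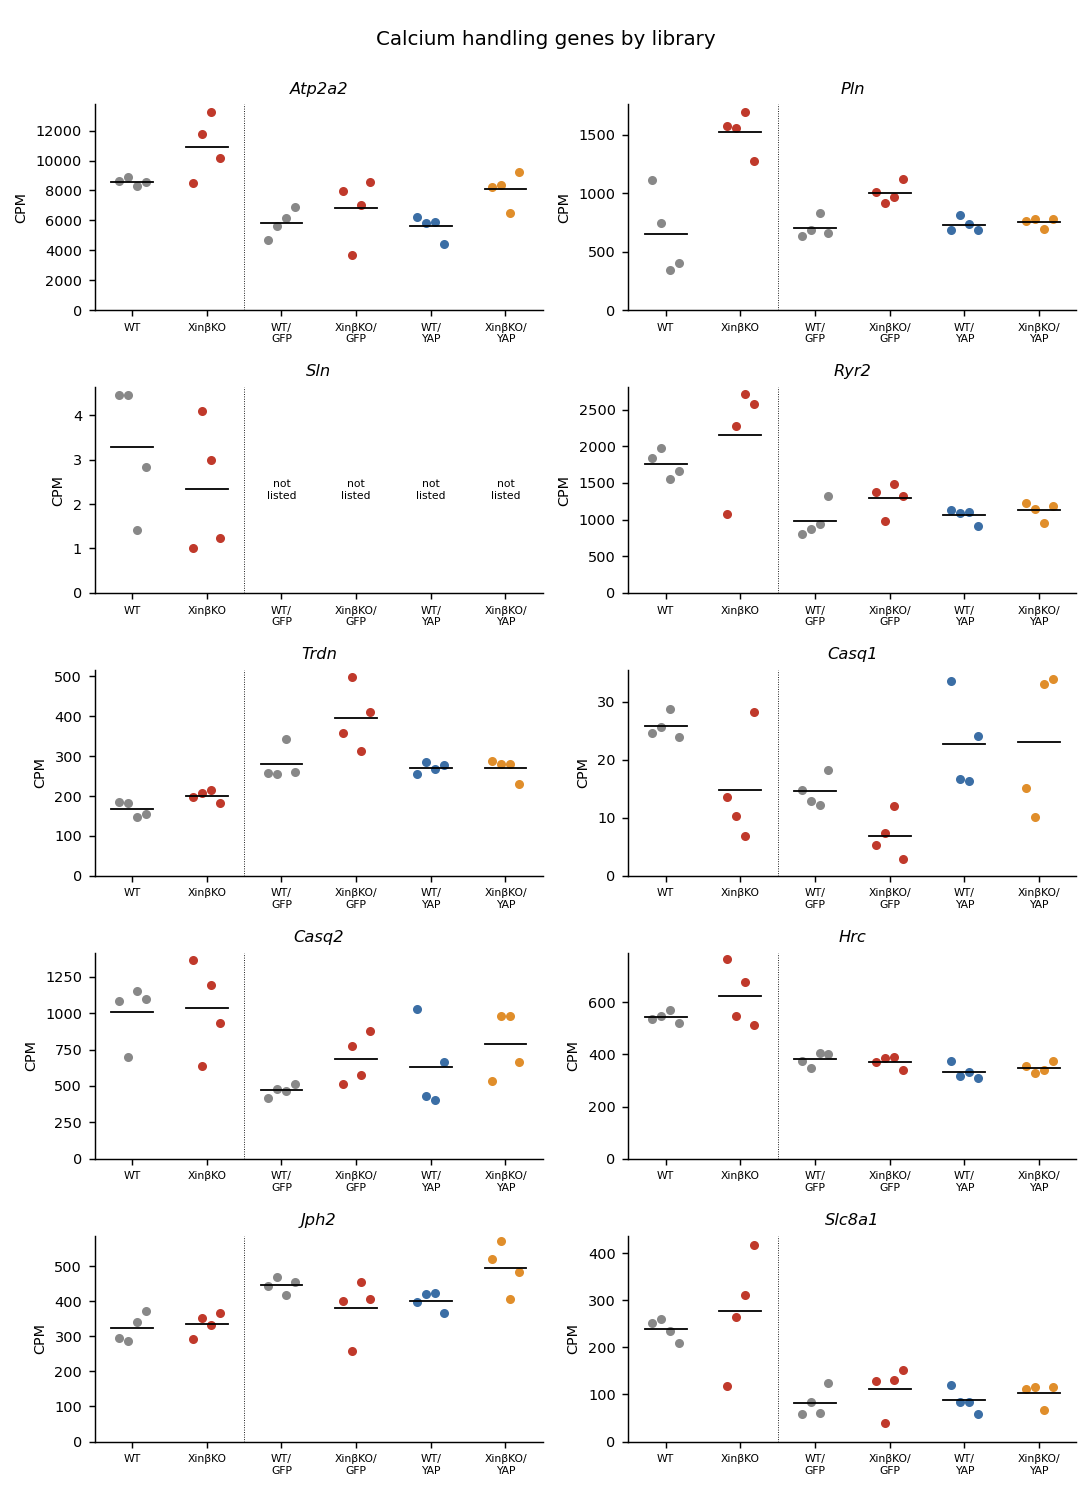
CPM (y axis, linear, from 0) of the 10 calcium handling genes in each of the 24 libraries, by group (x axis). Points are libraries, horizontal lines are group means, and the dotted line separates the uninjected from the injected hearts, which were sequenced separately. Pln lay higher in all 4 XinβKO than in all 4 WT libraries in the uninjected hearts and higher in XinβKO/GFP than in WT/GFP hearts, and XinβKO replicate 1 and XinβKO/GFP replicate 2 were each the lowest of their own group for Ryr2, Slc8a1 and Atp2a2.

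Per kb of exon, the pump Atp2a2 had the highest level in WT hearts, 1414 ± 43.1 CPM per kb (SD, n = 4). The cardiac calsequestrin Casq2 followed at 368.1 ± 75.5 CPM per kb, then Pln at 235.4 ± 129 and the SR luminal protein Hrc at 212 ± 8.16 CPM per kb. The libraries of Pln overlapped those of both neighbours. Jph2 and Ryr2, at 76.3 ± 9.45 and 61.0 ± 6.55 CPM per kb, also overlapped, as did Casq1 and Slc8a1, at 13.2 ± 1.11 and 12.7 ± 1.20 CPM per kb below Trdn at 17.9 ± 2.15. Sln was lowest at 2.50 ± 1.10 CPM per kb. In WT/GFP hearts the mean level of Pln, 254 CPM per kb, was above that of Casq2, 171 CPM per kb, and Casq1 and Slc8a1 were again lowest, at 7.45 and 4.36 CPM per kb. All annotated exons were counted as length, which lowers genes with many alternative exons: those of Ryr2 cover 28790 bp against 16814 bp in its longest transcript, and those of Trdn 9352 bp against 4514 bp.

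Atp2a2 (ENSMUSG00000029467, chromosome 5 from 122453513 to 122502225 of GRCm38, minus strand) encodes SERCA2, the pump that refills the SR. It was at 8640, 8914, 8275 and 8571 CPM in the WT libraries, by replicate number, and at 8496, 11751, 13278 and 10202 CPM in the XinβKO libraries. XinβKO replicate 1 fell among the WT libraries and the other 3 lay above them (log2 fold change 0.33, SE 0.150, 95% interval -0.01 to 0.66, adjusted p = 0.24 from limma). Atp2a2 in injected hearts ranged from 4703 to 6923 CPM in WT/GFP and was at 7975, 3655, 7062 and 8570 CPM in XinβKO/GFP replicates 1 to 4, so that the groups overlapped through XinβKO/GFP replicate 2 (log2 fold change 0.16, SE 0.223, 95% interval -0.31 to 0.64, adjusted p = 0.68). Its XinβKO/YAP S127A libraries held 6484 to 9249 CPM, above the 4449 to 6231 CPM of WT/YAP S127A hearts in every library (log2 fold change 0.53, SE 0.223, adjusted p = 0.40 from limma), a difference that did not pass the test.

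The SERCA inhibitors Pln and Sln encode the small membrane proteins phospholamban and sarcolipin. Their whole coding sequences are shown because both are so short, and because all 159 bases of the Pln coding sequence also lie in exons annotated on the other strand. From GENCODE M21 transcripts on GRCm38, 5′ to 3′ with the start and stop codons in capitals, Pln (chr10:53343864-53344022, plus strand, 52 codons before the stop) and Sln (chr9:53853473-53853568, plus strand, 31 codons before the stop) read:
Pln: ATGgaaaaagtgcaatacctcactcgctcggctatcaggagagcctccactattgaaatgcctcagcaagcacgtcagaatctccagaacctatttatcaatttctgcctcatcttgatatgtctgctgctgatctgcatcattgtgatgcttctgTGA
Sln: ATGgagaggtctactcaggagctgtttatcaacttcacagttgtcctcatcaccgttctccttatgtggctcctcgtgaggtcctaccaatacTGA

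Pln (ENSMUSG00000038583, chromosome 10 from 53337667 to 53345987 of GRCm38, plus strand) was the 1 member of 10 called in uninjected hearts, where 6.69% of the 15598 tested genes were called (3.23% higher and 3.46% lower). It was at 1110.2, 744, 339 and 405.3 CPM in the WT libraries and at 1575, 1557, 1694 and 1276 CPM in the XinβKO libraries. Every XinβKO library lay above every WT library, and the WT libraries spread over more than 3-fold. Pln was thus 2.35-fold higher in mean CPM (log2 fold change 1.38, SE 0.336, 95% interval 0.63 to 2.14, adjusted p = 0.043 from limma). It was the 1 member of 10 whose groups did not overlap, as 16.4% of tested genes did not. The call was lost in edgeR on the recovered reads (log2 fold change 1.23, adjusted p = 0.070), after quantile normalization (1.18, adjusted p = 0.093) and with a block for the replicate number (1.38, adjusted p = 0.060 from limma). It was also lost in 6 of the 8 fits that left out 1 library, with log2 fold changes of 1.13 to 1.503 and adjusted p from 0.061 to 0.12 in those 6. It held without WT replicate 1 (1.70, adjusted p = 0.023) and without XinβKO replicate 4 (1.47, adjusted p = 0.041).

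In the injected hearts Pln was at 631, 683, 828 and 656 CPM in the 4 WT/GFP libraries and at 1009.6, 917, 969 and 1124 CPM in the XinβKO/GFP libraries. The groups did not overlap. Pln rose 1.44-fold in mean CPM (log2 fold change 0.53, SE 0.0968, 95% interval 0.32 to 0.73, adjusted p = 0.0022 from limma), and it stayed called in all 16 fits without 1 library. In XinβKO/YAP S127A hearts Pln was at 762, 781, 698 and 779 CPM, below every XinβKO/GFP library. It fell by 0.41 on the log2 scale from XinβKO/GFP (SE 0.0968, 95% interval -0.61 to -0.20, adjusted p = 0.0095 from limma). WT/YAP S127A hearts held 682, 813, 740 and 683 CPM, within the range of WT/GFP.

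Pln shares 1644 exon bases with Gm47644, a gene annotated on the opposite strand, and 141 with Cep85l, also on the opposite strand. Gm47644 took 0.713% to 4.51% of the summed CPM of Pln and Gm47644 in uninjected libraries and 52.1% to 64.5% in injected libraries, which were sequenced and counted separately. The libraries were strand-specific, but whether the counting used the strand is not given in the sources used here, so in the injected hearts reads of the 2 genes cannot be told apart. The sum was at 1815 ± 236 CPM in WT/GFP, 2521 ± 448 CPM in XinβKO/GFP, 1847 ± 242 CPM in WT/YAP S127A and 2057 ± 200.98 CPM in XinβKO/YAP S127A hearts (SD, n = 4). Cep85l, with fewer shared bases, gave calls in the same directions as Pln: it was higher in XinβKO/GFP than in WT/GFP (log2 fold change 0.53, SE 0.106, adjusted p = 0.0035 from limma), lower in XinβKO/YAP S127A than in XinβKO/GFP (-0.40, adjusted p = 0.018) and called in the interaction (-0.55, adjusted p = 0.037). In uninjected XinβKO against WT hearts Cep85l was not called (0.25, adjusted p = 0.48 from limma). Gm47644 alone was not called in XinβKO/GFP against WT/GFP (0.42, adjusted p = 0.14) or in XinβKO/YAP S127A against XinβKO/GFP (-0.19, adjusted p = 0.50). Reads shared between Cep85l and Pln were not tested for. For the sum of Pln and Gm47644, the increase in XinβKO/GFP over WT/GFP still passed (log2 fold change 0.47, SE 0.141, adjusted p = 0.037 from limma), whereas the decrease with YAP S127A did not (-0.28, SE 0.141, adjusted p = 0.19). That decrease was also lost when each column was rescaled to the same sum (-0.28, adjusted p = 0.053 from limma) and after quantile normalization (-0.28, adjusted p = 0.053). The deposited columns differ in their sums, and this rescaling moved the median log2 fold change of all tested genes from 0.010 to 0.126 in this comparison, from -0.009 to -0.108 in XinβKO/GFP against WT/GFP, and from 0.001 to -0.123 in XinβKO against WT.

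**Figure D2:**
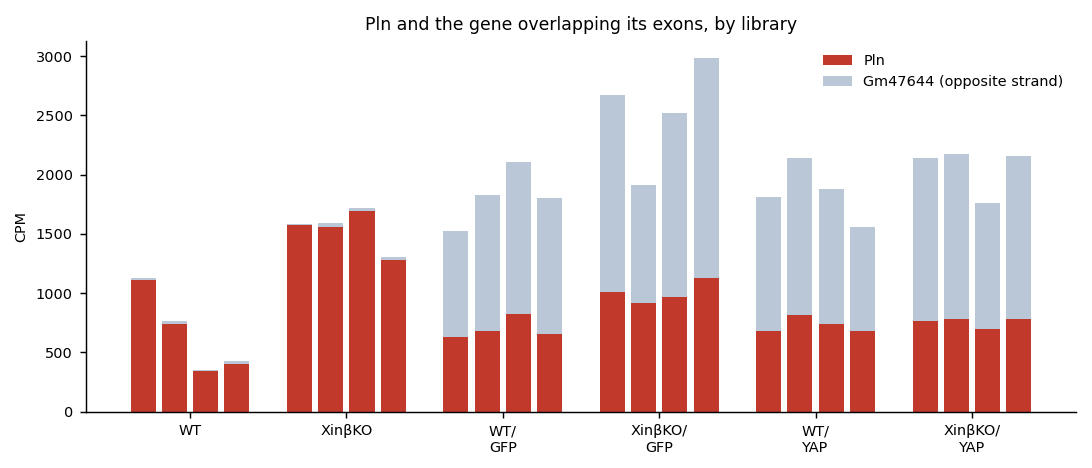
CPM (y axis, from 0) of Pln (red) and of Gm47644, the gene on the opposite strand that overlaps its exons (grey), stacked for each of the 24 libraries in replicate order within each group (x axis). Gm47644 made up at most 4.51% of the sum in the uninjected hearts and at least 52.1% in the injected hearts, and the sum was highest on average in XinβKO/GFP.

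Sln (ENSMUSG00000042045, chromosome 9 from 53850164 to 53854560, plus strand) is the SERCA inhibitor of atrial and slow skeletal muscle in the mouse. It was at 4.45, 4.44, 1.43 and 2.84 CPM in WT and at 1.02, 4.08, 2.997 and 1.23 CPM in XinβKO replicates 1 to 4, with overlapping groups (log2 fold change -0.40, SE 0.358, adjusted p = 0.57 from limma). Summed atrial markers were at 200.3 to 389.7 CPM in these uninjected hearts, with 9 of 10 listed, and in the injected hearts, with 8 of 10 listed, at 153 to 388.5 CPM in WT/GFP, 298 to 499 CPM in XinβKO/GFP, 236 to 320 CPM in WT/YAP S127A and 94.5 to 234 CPM in XinβKO/YAP S127A. The sums of XinβKO/GFP and XinβKO/YAP S127A hearts did not overlap. Much of these sums was Nppa, with means of 316 CPM in XinβKO/GFP and 83.4 CPM in XinβKO/YAP S127A hearts. Myl4 had means of 8.35 and 7.66 CPM. The paper uses the human form of Nppa as a marker of cardiomyopathy. Of 7 tested atrial markers, 1 had a positive log2 fold change. Only Nppa was called, lower in XinβKO/YAP S127A hearts (log2 fold change -2.11, SE 0.425, adjusted p = 0.0037 from limma). Pln and Trdn were also called lower there. The part of atrial RNA in those values was not tested. Single atrial markers went both ways between the 2 tables, Myl7 from 50.5 CPM in WT to 0.53 CPM in WT/GFP hearts and Nppa from 73.5 to 169 CPM, and this was not tested.

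The ratio of Pln to Atp2a2, each per exon length, was 0.0903 to 0.283 in WT and 0.276 to 0.409 in XinβKO hearts. In the injected hearts it was 0.209 to 0.297 in WT/GFP, 0.279 to 0.553 in XinβKO/GFP, 0.241 to 0.339 in WT/YAP S127A and 0.186 to 0.237 in XinβKO/YAP S127A hearts. The ratio in XinβKO/YAP S127A libraries lay below that of every XinβKO/GFP and WT/YAP S127A library, and the XinβKO/GFP value of 0.553 belonged to replicate 2. These ratios carry the uncertainty of Pln named above and were not tested.

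The release channel Ryr2 (ENSMUSG00000021313, chromosome 13 from 11553102 to 12106945, minus strand) is the ryanodine receptor of heart muscle. It was at 1839, 1976, 1548 and 1666 CPM in WT replicates 1 to 4 and at 1079.5, 2277, 2709 and 2577 CPM in XinβKO replicates. XinβKO replicate 1 was the lowest of the 8 libraries and the other 3 XinβKO libraries were the highest (log2 fold change 0.22, SE 0.271, adjusted p = 0.69 from limma). In the injected hearts Ryr2 was at 801, 878, 943 and 1321 CPM in WT/GFP and at 1380.4, 975, 1490 and 1316 CPM in XinβKO/GFP, with XinβKO/GFP replicate 2 lowest of its group (log2 fold change 0.40, SE 0.154, adjusted p = 0.10 from limma). With YAP S127A its range was 906 to 1127 CPM in WT and 949 to 1233 CPM in XinβKO hearts, which overlapped.

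The same 2 libraries were the lowest of their experiments in the level of long transcripts, a set that includes Ryr2 and Slc8a1. XinβKO replicate 1 had a median deviation of genes with transcripts of at least 8000 bases that was 0.94 lower on the log2 scale than that of genes with transcripts of at most 2000 bases, where the other 7 uninjected libraries were between -0.04 and 0.25. XinβKO/GFP replicate 2 was at -0.38, where the other 15 injected libraries were between -0.26 and 0.20. Without XinβKO replicate 1, Ryr2 (log2 fold change 0.52, SE 0.104, adjusted p = 0.021 from limma) and Atp2a2 (0.44, SE 0.102, adjusted p = 0.035) were called higher in XinβKO hearts, while Pln kept its size and missed the threshold (1.37, adjusted p = 0.061). Without XinβKO/GFP replicate 2, Ryr2 (0.53, SE 0.144, adjusted p = 0.018) and the exchanger Slc8a1 (0.80, SE 0.260, adjusted p = 0.044) were called higher in XinβKO/GFP than in WT/GFP hearts, beside Pln and Trdn, and Atp2a2 was at 0.44 (SE 0.156, adjusted p = 0.061). Ryr2 was also called without WT/GFP replicate 4, the highest of its group (0.55, SE 0.139, adjusted p = 0.021). Both libraries were also the lowest of their groups for Ryr2, Slc8a1 and Atp2a2, so leaving them out raises these genes in the XinβKO groups. The part of RNA length in these values was not tested further.

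**Figure D3:**
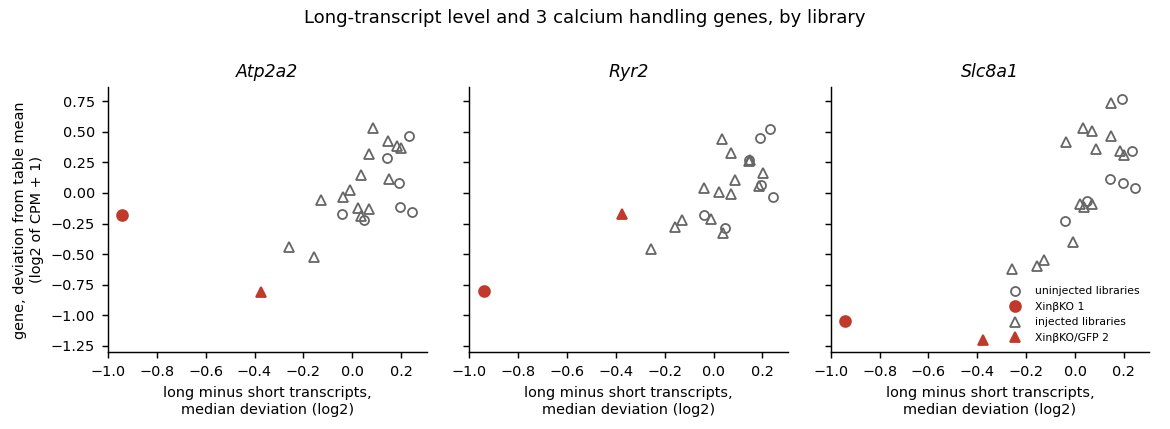
Deviation of Atp2a2, Ryr2 and Slc8a1 from their mean over the libraries of the same table (y axis, log2 of CPM + 1) against the median deviation of long minus short transcripts in the same library (x axis, log2). Each point is 1 of 24 libraries, circles are uninjected and triangles injected hearts, and the filled red points are XinβKO replicate 1 and XinβKO/GFP replicate 2, which lie furthest left.

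Trdn (ENSMUSG00000019787, chromosome 10 from 33080554 to 33476709, plus strand) encodes triadin, which links the ryanodine receptor to calsequestrin at the junctional SR. Uninjected hearts held 186, 184, 147 and 154 CPM in WT and 198, 206, 214.04 and 182 CPM in XinβKO hearts, where only XinβKO replicate 4 fell within the WT range (log2 fold change 0.26, SE 0.109, adjusted p = 0.20 from limma). Injected hearts held 259, 255, 344 and 259.9 CPM in WT/GFP and 359, 498, 313 and 411 CPM in XinβKO/GFP hearts. WT/GFP replicate 3 lay above XinβKO/GFP replicate 3, and the remaining libraries kept apart. Trdn rose 1.41-fold in mean CPM (log2 fold change 0.49, SE 0.129, 95% interval 0.21 to 0.76, adjusted p = 0.019 from limma). With Pln it made 2 of 9 tested members called in this comparison, in which 13.7% of the 14597 tested genes were called (6.43% higher and 7.22% lower). The call for Trdn held in 12 of 16 fits without 1 library and was lost without WT/GFP replicates 1, 2 or 4 or XinβKO/GFP replicate 4 (log2 fold changes of 0.45 to 0.46, adjusted p from 0.052 to 0.059) and in a fit to the 8 libraries of the 2 groups alone (adjusted p = 0.092).

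With YAP S127A, Trdn in XinβKO hearts was at 288, 279, 281 and 231 CPM, below every XinβKO/GFP library. It fell by 0.53 on the log2 scale from XinβKO/GFP (SE 0.129, 95% interval -0.81 to -0.26, adjusted p = 0.011 from limma). This call held in each of the 16 fits without 1 library and in each of the 11 other alternatives, with log2 fold changes from -0.64 to -0.40. WT/YAP S127A hearts were at 254, 285, 269 and 278 CPM, between the lowest and the highest WT/GFP library except for replicate 1.

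The calsequestrins bind calcium inside the SR. Casq2, the cardiac form (ENSMUSG00000027861, chromosome 3 from 102086415 to 102146514, plus strand), was at 1080, 701, 1153 and 1095 CPM in WT and 1365, 637, 1195 and 935 CPM in XinβKO hearts (log2 fold change 0.01, 95% interval -0.56 to 0.57, adjusted p = 0.99 from limma). In injected hearts its mean was 469 ± 41.9 CPM in WT/GFP, 683 ± 170 in XinβKO/GFP, 633 ± 290 in WT/YAP S127A and 791 ± 226.6 CPM in XinβKO/YAP S127A hearts (SD, n = 4). Each XinβKO/YAP S127A library, at 534 to 984 CPM, lay above the WT/GFP range of 414.7 to 515 CPM, but the difference did not pass the test (log2 fold change 0.71, SE 0.265, adjusted p = 0.75 from limma).

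Casq1 (ENSMUSG00000007122, chromosome 1 from 172209894 to 172219868, minus strand), the calsequestrin of fast skeletal muscle, was at 24.7, 25.6, 28.8 and 23.9 CPM in WT and at 13.5, 10.4, 6.89 and 28.2 CPM in XinβKO replicates 1 to 4. XinβKO replicate 4 lay within the WT range and the other 3 below it (log2 fold change -0.93, SE 0.337, adjusted p = 0.14 from limma). Without that replicate the difference was called (-1.29, SE 0.199, adjusted p = 0.0045). The same heart had 120 CPM of Top2a, a gene of dividing cells, where the other XinβKO hearts had 11.6 to 28 CPM and the WT hearts 101 to 135 CPM.

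In injected hearts Casq1 was at 14.8, 12.9, 12.1 and 18.3 CPM in WT/GFP and at 5.21, 7.39, 12.0 and 2.97 CPM in XinβKO/GFP replicates 1 to 4. The groups did not overlap, though XinβKO/GFP replicate 3 lay just under the lowest WT/GFP library, and with Pln this made 2 of 9 members, where 15.3% of tested genes did not overlap. The difference missed the threshold (log2 fold change -1.09, SE 0.375, 95% interval -1.89 to -0.30, adjusted p = 0.064 from limma) and passed it in DESeq2 on the recovered reads (-1.08, adjusted p = 0.037), with columns rescaled to the same sum (-1.19, adjusted p = 0.040) and without XinβKO/GFP replicate 3 (-1.38, adjusted p = 0.021) or XinβKO/YAP S127A replicate 2 (-1.09, adjusted p = 0.042). In YAP S127A hearts Casq1 was at 33.6, 16.6, 16.3 and 24.2 CPM in WT and at 15.1, 10.2, 33.0 and 33.9 CPM in XinβKO replicates. XinβKO/YAP S127A replicate 2 fell within the XinβKO/GFP range and the other 3 lay above it. Casq1 rose 3.34-fold in mean CPM from XinβKO/GFP to XinβKO/YAP S127A (log2 fold change 1.58, SE 0.375, 95% interval 0.78 to 2.37, adjusted p = 0.010 from limma), a call that held in all 16 fits without 1 library and was lost in the fit to the 2 groups alone (adjusted p = 0.051).

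Genes of skeletal muscle were read beside Casq1, and their differences lay in both directions. Of 14 skeletal muscle markers, 3 were listed in uninjected hearts, with summed levels of 27.4 to 34.6 CPM in WT and 6.34 to 24.6 CPM in XinβKO hearts. In injected hearts 5 were listed, with sums of 31.3 to 35.8 CPM in WT/GFP, 12.1 to 28.6 in XinβKO/GFP, 36.6 to 46.6 in WT/YAP S127A and 30.0 to 66.6 CPM in XinβKO/YAP S127A hearts. Most of the sum was Mybpc2, the fast form of myosin-binding protein C, at 26.7, 23.4, 27.3 and 29.5 CPM in WT/GFP and at 9.498, 8.37, 16.6 and 5.40 CPM in XinβKO/GFP hearts (log2 fold change -1.43, SE 0.272, adjusted p = 0.0027 from limma). Myh8 was also lower on average in XinβKO/GFP, at 0.410 against 1.07 CPM. The 3 others lay the opposite way, with means in XinβKO/GFP against WT/GFP of 2.14 against 1.302 CPM for fast troponin I (Tnni2), 4.72 against 3.44 CPM for Neb and 1.26 against 0.798 CPM for Mylpf. Of the 4 markers tested there, 2 had a positive log2 fold change and only Mybpc2 was called. In XinβKO/YAP S127A against XinβKO/GFP, where Casq1 was called higher, 2 of the 4 were called with it: Mybpc2 (1.67, SE 0.272, adjusted p = 0.00088 from limma) and Myh8 (1.22, SE 0.291, adjusted p = 0.010). The 3 others were lower on average in XinβKO/YAP S127A, at 1.19 CPM for Tnni2, 3.72 CPM for Neb and 0.760 CPM for Mylpf. Mybpc2 was also called in the interaction (1.49, adjusted p = 0.029). The fast myosins Myh1, Myh2 and Myh4 were not listed. The ratio of Casq1 to Casq2, each per exon length, was 0.0366 to 0.0499 in WT/GFP, 0.00477 to 0.0294 in XinβKO/GFP, 0.0457 to 0.0565 in WT/YAP S127A and 0.0145 to 0.0712 in XinβKO/YAP S127A hearts. The part of skeletal muscle RNA in the Casq1 values was not tested.

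**Figure D4:**
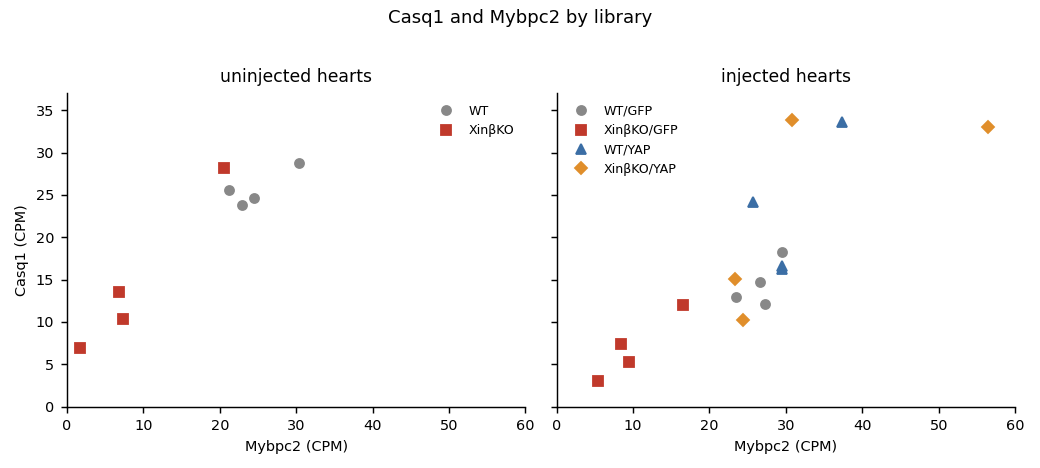
Casq1 (y axis, CPM) against Mybpc2 (x axis, CPM) in the 8 uninjected (left) and 16 injected (right) libraries, with 1 point per library and a symbol per group. Among the injected hearts the XinβKO/GFP libraries have the 4 lowest Mybpc2 values and Casq1 values of 2.97 to 12.0 CPM, and XinβKO replicate 4 lies near the WT libraries among the uninjected hearts.

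Hrc (ENSMUSG00000038239, chromosome 7 from 45335290 to 45338974, plus strand) encodes the histidine-rich calcium-binding protein of the SR lumen and stayed between 309.9 and 404.6 CPM over the 16 injected libraries. Its means were 382 ± 26.1, 371 ± 23.1, 334 ± 29.0 and 349 ± 19.0 CPM in WT/GFP, XinβKO/GFP, WT/YAP S127A and XinβKO/YAP S127A (SD, n = 4), with overlapping ranges. The interval of the difference between XinβKO/GFP and WT/GFP ran from -0.21 to 0.13 on the log2 scale. In uninjected hearts Hrc was at 544 ± 20.9 CPM in WT and 626 ± 117 CPM in XinβKO (log2 fold change 0.18, SE 0.134, adjusted p = 0.48 from limma).

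Jph2 (ENSMUSG00000017817, chromosome 2 from 163336242 to 163397993, minus strand) encodes junctophilin 2, which tethers the SR to the T-tubule. It was at 325 ± 40.2 CPM in WT and 336 ± 31.8 CPM in XinβKO hearts (log2 fold change 0.05, 95% interval -0.21 to 0.32, adjusted p = 0.83 from limma). Injected hearts held 444, 471, 418 and 454 CPM in WT/GFP, 402, 259, 454 and 407 CPM in XinβKO/GFP and 521, 571, 407 and 484 CPM in XinβKO/YAP S127A hearts. XinβKO/GFP replicate 2, the injected library with the lowest level of long transcripts, was the lowest of all. The difference of XinβKO/YAP S127A from XinβKO/GFP missed the threshold (log2 fold change 0.40, SE 0.141, adjusted p = 0.067 from limma), passed it when columns were rescaled to the same sum (0.53, adjusted p = 0.028), after quantile normalization (0.46, adjusted p = 0.037), and without XinβKO/GFP replicate 3 (0.50, adjusted p = 0.028) or XinβKO/YAP S127A replicate 3 (0.49, adjusted p = 0.040). It was 0.23 without XinβKO/GFP replicate 2 (adjusted p = 0.14).

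The exchanger Slc8a1 (ENSMUSG00000054640, chromosome 17 from 81373105 to 81738377, minus strand), NCX1, carries calcium out across the sarcolemma. It was at 252, 259.9, 235.1 and 209 CPM in WT and at 119, 265, 311 and 417 CPM in XinβKO hearts, where replicate 1 was the lowest and the other 3 the highest of the 8 libraries (log2 fold change 0.09, SE 0.326, adjusted p = 0.90 from limma). Injected hearts held 58.2, 83.4, 61.3 and 125 CPM in WT/GFP and 128, 38.6, 131 and 151 CPM in XinβKO/GFP hearts, the same arrangement with replicate 2 lowest (0.35, SE 0.359, adjusted p = 0.58). Its range was 59.5 to 121 CPM in WT/YAP S127A and 67.9 to 116 CPM in XinβKO/YAP S127A hearts.

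Over the members together, 8 of 10 had a positive log2 fold change in XinβKO against WT, with a median of 0.135 beside 0.001 for all tested genes. With columns rescaled to the same sum, which moves all genes together, 5 of 10 were positive (median -0.005 beside -0.123) and 7 of 10 lay above the median of all genes, against 8 of 10 before. After quantile normalization 5 of 10 were positive (median 0.003 beside 0.016) and 4 of 10 lay above that median. In XinβKO/GFP against WT/GFP, 6 of 9 were positive, with a median of 0.346 beside -0.009. In XinβKO/YAP S127A against XinβKO/GFP, 3 of 9 members were called, where 14.8% of tested genes were (7.85% higher and 6.92% lower): Casq1 higher, and Pln and Trdn lower. Of the 9, 2 had groups that did not overlap, as had 17.5% of tested genes, and the median was 0.011 beside 0.010 (-0.092 beside -0.003 in edgeR, and 0.139 beside 0.126 with columns rescaled). The last 2 comparisons share the XinβKO/GFP libraries.

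**Figure D5:**
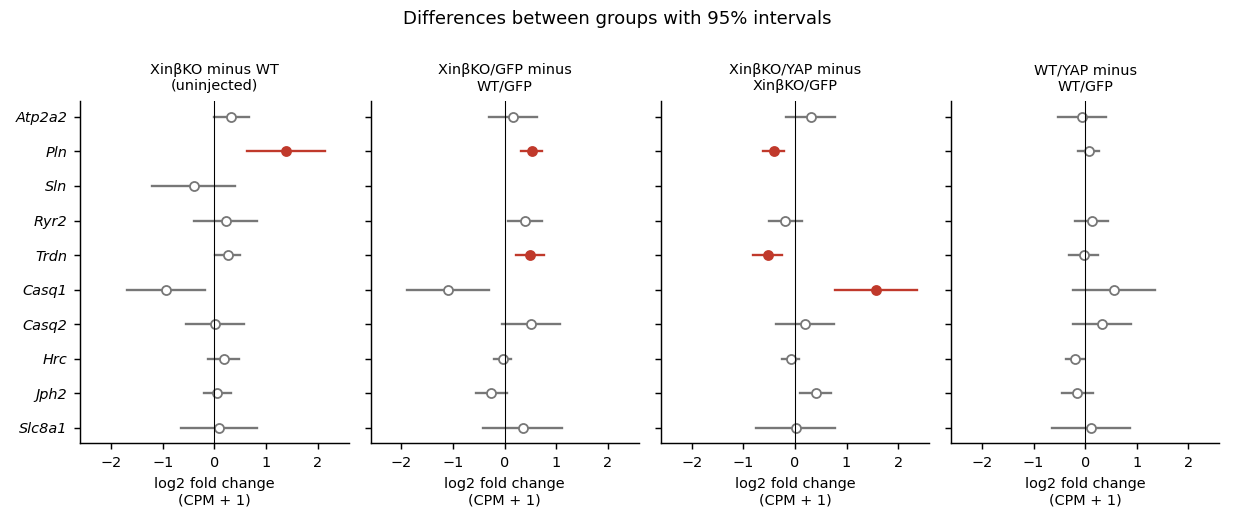
Log2 fold changes of log2(CPM + 1) values (x axis) of the 10 members (rows) with 95% intervals from limma, in 4 comparisons. Filled red points have an adjusted p under 0.05: Pln in XinβKO against WT, XinβKO/GFP against WT/GFP and XinβKO/YAP S127A against XinβKO/GFP, Trdn in the last 2 of these, and Casq1 in the last. Sln was tested in the uninjected hearts alone.

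Against WT/GFP, no member was called in XinβKO/YAP S127A hearts by limma, edgeR or DESeq2, where 0.0206% of tested genes were called by limma. The 1 member with an unadjusted p under 0.05 was Casq2, also the 1 of 9 with groups that did not overlap (4.45% of tested genes). The log2 fold change was 0.12 for Pln (95% interval -0.09 to 0.32) and -0.04 for Trdn (-0.32 to 0.23). For Casq1 it was 0.48 (-0.31 to 1.28), so that a difference of up to 1.28 on the log2 scale was within the interval.

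In WT hearts, YAP S127A against GFP gave 0 called members and 0 called genes in limma (0% of 14597). No member was called in edgeR or DESeq2 either, and these called 0 and 11 genes. At an unadjusted p under 0.05, limma passed 1011 genes and 1 member, Hrc (log2 fold change -0.20, SE 0.0809, adjusted p = 0.70). Pln differed by 0.07 (95% interval -0.14 to 0.27), Trdn by -0.03 (-0.31 to 0.24) and Casq1 by 0.56 (-0.23 to 1.36). No member's groups kept apart in that comparison, where 4.32% of tested genes did. Between the 2 YAP S127A groups no member was called (0.0411% of tested genes, 0.00685% higher), and Atp2a2 was the 1 of 9 members without overlap, where 9.23% of genes had none.

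Whether the effect of YAP S127A differed between genotypes was tested as an interaction. Pln was the 1 member of 9 called (-0.48, SE 0.137, 95% interval -0.76 to -0.19, adjusted p = 0.045 from limma), where 7.56% of tested genes were called (3.8% higher and 3.77% lower). It was called in the 4 of 16 fits that left out WT/GFP replicate 3, XinβKO/GFP replicate 2 or 3 or WT/YAP S127A replicate 1 (adjusted p from 0.019 to 0.095 over the 16), was not called for the sum with Gm47644 (-0.31, SE 0.199, adjusted p = 0.37), and was not called with columns rescaled to the same sum (-0.36, adjusted p = 0.11). Trdn (-0.50, SE 0.183, adjusted p = 0.11), Jph2 (0.56, SE 0.1999, adjusted p = 0.10) and Casq1 (1.01, SE 0.531, adjusted p = 0.26) did not pass. Trdn passed without WT/GFP replicate 3 (-0.60, adjusted p = 0.048) or XinβKO/GFP replicate 3 (-0.61, adjusted p = 0.039).

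The sequences upstream of the members were read for the letters bound by factors of this setting, among them TEAD, the DNA-binding partner of YAP. RefSeq promoter windows on GRCm38.p6 matched 7 of the 10 members, with up to 250 bases before the start, while Atp2a2, Sln and Trdn had no entry. GGAATG, the letters of a TEAD site, searched on both strands, was in 0 of the 7, where 12.6% of 27025 promoters held it. For MEF2, 1 spelling with fixed ends and an open middle was searched, and it was in 0 of 7, where 3.23% of promoters held it. MEF2 sites with other ends were not searched for, so this count does not cover them. A site of the GATA factors, searched as AGATAA, was in 2 of 7 (Pln and Slc8a1), where 10.3% of promoters held it. CANNTG, an E-box, was in 7 of 7, where 66% of promoters held it. No match says that these exact letters are not in this window. Other spellings of these sites were not searched, so the capitals below mark AGATAA alone, here as its reverse complement TTATCT. The windows of Pln (chr10:53337436-53337666, plus strand, up to the annotated gene start) and Casq1 (chr1:172219896-172220145, minus strand) are shown as those of the members called in XinβKO/YAP S127A against XinβKO/GFP that had an entry, 5′ to 3′, with capitals marking the GATA letters, which do not overlap the 1 E-box match in the Pln window:
Pln: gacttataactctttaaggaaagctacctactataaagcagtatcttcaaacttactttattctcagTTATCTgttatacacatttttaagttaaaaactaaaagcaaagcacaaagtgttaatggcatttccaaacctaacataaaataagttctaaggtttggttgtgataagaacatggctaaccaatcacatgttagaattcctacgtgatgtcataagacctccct
Casq1: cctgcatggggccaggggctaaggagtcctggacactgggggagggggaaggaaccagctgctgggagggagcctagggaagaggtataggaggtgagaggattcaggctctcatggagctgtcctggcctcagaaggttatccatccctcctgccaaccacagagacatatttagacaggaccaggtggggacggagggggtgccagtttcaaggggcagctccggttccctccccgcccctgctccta

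By library profile over the 16 injected hearts, the genes nearest to Pln were Sqstm1, Mat2b and Rsph3b, with root mean square differences of 0.081, 0.085 and 0.102 on the log2 scale after each gene was centred. Pln itself varied by 0.234, and the median distance over 14596 genes was 0.334. Nearest to Trdn, which varied by 0.279, were Nexn (0.121), Zmym5 (0.126) and Rnpc3 (0.128), beside a median of 0.368. Nearest to Casq1, which varied by 0.843, were Mybpc2 (0.359), Ankrd23 (0.379) and Myh8 (0.398), beside a median of 0.872. All profiles share the same libraries and their depth.

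Around the members, 115 genes on 7 lists cover the wider calcium pathway, and 102 of them were tested. Of these, 3 were higher and 3 lower in XinβKO than in WT hearts (5.88% called, beside 6.69% of all genes). In XinβKO/GFP against WT/GFP, 7 were higher and 8 lower (14.7%, beside 13.7%). In XinβKO/YAP S127A against XinβKO/GFP, 10 were higher and 10 lower (19.6%, beside 14.8%). No listed gene was called by limma in the comparisons of XinβKO/YAP S127A with WT/GFP or WT/YAP S127A, or of WT/YAP S127A with WT/GFP. In the interaction 4 were higher and 5 lower (8.82%, beside 7.56%), among them Akap5, Rcn1 and the calcineurin regulator Rcan1 higher, and Tecrl, Nexn, Cacna1h, Cacna1c and Adcy6 lower.

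Among the 15 tested SERCA pumps and regulators, Akap5, an anchor of protein kinase A, fell furthest. It was at 0.700 ± 0.187 CPM in XinβKO and 11.6 ± 2.53 CPM in WT hearts (SD, n = 4, log2 fold change -2.88, SE 0.161, adjusted p = 0.00010 from limma), the 1 gene of that list called. Its level in XinβKO was under the filter of 1 CPM, so it passed that filter through the WT libraries. It was at 1.49 ± 0.999 CPM in XinβKO/GFP and 9.28 ± 3.47 CPM in WT/GFP hearts (-2.06, adjusted p = 0.00020), and at 9.07 ± 1.97 CPM in XinβKO/YAP S127A hearts (2.08 from XinβKO/GFP, adjusted p = 0.00016). Ppp1r3a, a targeting subunit of protein phosphatase 1, was at 61.9 ± 2.27 CPM in WT/GFP, 115 ± 33.3 in XinβKO/GFP and 66.6 ± 13.1 CPM in XinβKO/YAP S127A hearts, higher in the first comparison (0.84, adjusted p = 0.0037) and lower in the second (-0.76, adjusted p = 0.0067). Ppp1r1a, an inhibitor of that phosphatase, fell by 0.46 with YAP S127A (adjusted p = 0.034).

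Of 19 tested genes of SR calcium release, Tmem38b, a cation channel of the SR, was the 1 called in uninjected hearts, at 22.5 ± 2.16 CPM in XinβKO and 14.4 ± 1.75 CPM in WT (SD, n = 4, log2 fold change 0.62, adjusted p = 0.020 from limma). In XinβKO/GFP hearts Tecrl, a gene of the SR linked to inherited arrhythmia, rose from 17.8 ± 2.596 to 38.9 ± 8.09 CPM (1.07, adjusted p = 0.00019), while the calmodulin gene Calm2 fell (-0.34, adjusted p = 0.039). From XinβKO/GFP to XinβKO/YAP S127A, Tecrl fell to 21.4 ± 1.54 CPM (-0.81, adjusted p = 0.0013) and the inositol trisphosphate receptor Itpr2 fell (-0.50, adjusted p = 0.0093), while Calm2 rose (0.39, adjusted p = 0.019).

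Calcium entry and extrusion at the sarcolemma had 19 tested genes. Cacna1c, the pore of the L-type channel, was at 236 ± 56.6 CPM in WT/GFP, 404 ± 50.5 in XinβKO/GFP and 275 ± 30.4 CPM in XinβKO/YAP S127A hearts (log2 fold change 0.80, adjusted p = 0.0023, and -0.55, adjusted p = 0.020, from limma). The T-type channel gene Cacna1h was higher in XinβKO than in WT (0.61, adjusted p = 0.039) and in XinβKO/GFP than in WT/GFP (0.77, adjusted p = 0.0058), and fell with YAP S127A (-0.78, adjusted p = 0.0050). The exchanger Slc8a2 was lower in XinβKO (-0.80, adjusted p = 0.032, at 1.71 against 3.68 CPM) and the channel subunit Cacnb3 lower in XinβKO/GFP (-0.56, adjusted p = 0.047). With YAP S127A, 4 genes of this list rose, among them the channel subunit Cacnb1 (0.63, adjusted p = 0.025).

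Of 10 tested genes of the dyad and T-tubules, none was called in uninjected hearts. In XinβKO/GFP, Bin1, which shapes T-tubule membranes, was lower (log2 fold change of -0.70, SE 0.213, adjusted p = 0.038 in limma), and Nexn (0.51, adjusted p = 0.012) and caveolin 3 (Cav3, 0.45, adjusted p = 0.0018) were higher than in WT/GFP. From XinβKO/GFP to XinβKO/YAP S127A, Bin1 rose (0.74, adjusted p = 0.028) and Nexn (-0.52, adjusted p = 0.0094) and Cav3 (-0.40, adjusted p = 0.0035) fell.

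Among 14 tested genes of store-operated entry and luminal buffering, the reticulocalbin gene Rcn1 was lower in XinβKO than in WT (log2 fold change -0.46, SE 0.103, adjusted p = 0.032 from limma) and in XinβKO/GFP than in WT/GFP (-0.49, adjusted p = 0.0019), as were Rcn3 (-0.88, adjusted p = 0.018) and the store-operated channel Orai1 (-0.71, adjusted p = 0.0058) in the latter. Rcn3 (0.79, adjusted p = 0.031) and Rcn1 (0.40, adjusted p = 0.0064) rose with YAP S127A. Summed fibroblast markers, given above, were also lowest in XinβKO/GFP of these 3 injected groups, and in XinβKO of the uninjected ones, and their part in these values was not tested. None of 10 tested genes of mitochondrial calcium uptake was called by limma in any of the 7 comparisons. Of 15 calcium-dependent signalling genes, the adenylyl cyclase Adcy6 was higher in XinβKO (0.68, adjusted p = 0.042) and XinβKO/GFP (0.86, adjusted p = 0.00059), and it fell with YAP S127A (-0.71, adjusted p = 0.0021), as did the calcineurin subunit Ppp3ca (-0.23, adjusted p = 0.035).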

How the data were processed

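The authors isolated RNA from the hearts of mice at postnatal day 7.5, made strand-specific poly(A) libraries, trimmed the reads with Cutadapt 2.3, checked them with FastQC, aligned them to GRCm38 with HISAT2 2.1.0, assembled and counted them with StringTie 1.3.4 and its prepDE script, and computed CPM with edgeR 3.26.1. That script derives counts from coverage and a read length whose setting is not given in the sources used here. What the authors deposited is a signal, CPM with column sums of 942566 to 1134439, taken here as CPM on scaled library sizes. The design had assumed plain CPM. Whole reads were recovered from the smallest step of each library (at least 99.95% of values within 0.05 reads), and were used only in count-based alternatives.

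A gene was kept when over 1 CPM in 4 or more of the 8 uninjected or 8 or more of the 16 injected libraries, which left 15598 and 14597 genes, and tested in limma 3.58.1 (mean-variance trend, Benjamini-Hochberg adjustment) on log2(CPM + 1). One model held the 16 injected libraries. The study's methods name Fisher's exact test, which needs counts. Groups follow the labels, and replicates of a group differed by more than sampling noise. Levels per kb divide CPM by the union of a gene's exons. Alternatives were a pseudocount of 0.1, no filter or 5 CPM, median-ratio scaling, quantile normalization, no trend in limma, count tests in edgeR 4.0.16 and in DESeq2 1.42.0, a replicate block, 2 groups alone and each library left out. Columns rescaled to the same sum and Pln summed with Gm47644 were added after the data were seen.

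The members and the gene lists were chosen with earlier results of these data known. All members are named. From each list, up to 4 called genes with the largest log2 fold change are named in XinβKO against WT, XinβKO/GFP against WT/GFP and XinβKO/YAP S127A against XinβKO/GFP, except for some genes not reported here. The tests were tried on simulated counts before use. R 4.3.3 and Python 3.11.15 were used. The methods say that controls were littermates, but which hearts shared a litter is not given in the sources used here, so no litter term was fitted and p-values measure only the spread between these samples.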

Additional observations from a re-analysis of the deposited data

Results flagged for a closer look

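Of 56 sets of 4 values (a member in a group), 5 had 1 library set far from the other 3 by Dixon's test, where chance gives about 1 in 20, or 2.8. Ryr2 was at 906 CPM in 1 WT/YAP S127A library, beside 1093 to 1127 CPM. Casq2 was at 701 CPM in 1 WT library, beside 1080 to 1153 CPM. Slc8a1 was at 67.9 CPM in 1 XinβKO/YAP S127A library, beside 112 to 116 CPM. Trdn was at 344 CPM in 1 WT/GFP library, beside 255 to 259.9 CPM, and at 231 CPM in 1 XinβKO/YAP S127A library, beside 279 to 288 CPM.

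The effect of YAP S127A on Pln differed between XinβKO and WT hearts in the interaction test, by -0.48 on the log2 scale (SE 0.137, adjusted p = 0.045 from limma). The call was lost when Pln was summed with Gm47644 (adjusted p = 0.37), with columns rescaled to the same sum (0.11), after quantile normalization (0.073), in limma without the trend (0.064), with the replicate block (0.084) and in 12 of 16 fits without 1 library. Its cause was not tested.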

How the results depend on the processing

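Of 690 member log2 fold changes under other settings, 659 kept their direction and side of the threshold, and of 944 with 1 library left out, 877 did. Counts of called members moved by over 1.5 times as follows. For XinβKO against WT, 1 became 0 after quantile normalization, in edgeR and with the replicate block, and ran from 0 to 2 with 1 library left out. For XinβKO/GFP against WT/GFP, 2 became 1 in the fit to 2 groups, and ran from 1 to 4. For the interaction, 1 became 0 after quantile normalization, without the trend, with the replicate block and with columns rescaled to the same sum, and ran from 0 to 2. Whether replicate numbers pair samples is not given in the sources used here, and deviations of same-numbered libraries correlated at -0.191 to 0.137. In XinβKO against WT, 1 of 4 XinβKO libraries correlated best with its own number. In XinβKO/YAP S127A against WT/GFP, 2 of 4 XinβKO/YAP S127A libraries did. The block took the genes called from 6.69% to 2.47% of those tested in XinβKO against WT and from 1104 to 707 for the interaction. The blocked Pln values were 1.38 (adjusted p = 0.060 from limma) and -0.48 (adjusted p = 0.084).

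All-gene counts for XinβKO against WT were 1044 in limma, 1955 in DESeq2, 1594 with columns rescaled, 692 with a filter at 5 CPM, and 316 to 2031 with 1 library left out. The fits to 2 groups called 930 genes in XinβKO/GFP against WT/GFP (1993 in the fit to all), 1208 in XinβKO/YAP S127A against XinβKO/GFP (2156) and 15 between the YAP S127A groups (6). With 1 library left out the ranges were 1258 to 2749, 1474 to 2490, 0 to 16, and 625 to 1467 for the interaction, 0 to 4 for XinβKO/YAP S127A against WT/GFP and 0 to 1 for WT/YAP S127A against WT/GFP. For XinβKO/YAP S127A against WT/GFP and WT/YAP S127A, DESeq2 called 24 and 71 genes where limma called 3 and 6. Rescaling turned the higher and lower calls from 504 and 540 to 353 and 1241 for XinβKO against WT, from 939 and 1054 to 590 and 1759 for XinβKO/GFP against WT/GFP, from 1146 and 1010 to 2156 and 591 for XinβKO/YAP S127A against XinβKO/GFP, and from 554 and 550 to 884 and 345 for the interaction.

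The log2 fold changes that changed sign were of members not called in that comparison, and the cause was not tested other than the shift of all genes by rescaling. For XinβKO against WT, quantile normalization gave -0.20 for Casq2, -0.000 for Slc8a1 and -0.055 for Jph2, and rescaled columns, which moved the median of all genes from 0.001 to -0.123, gave -0.133, -0.053 and -0.087. With 1 library left out these ran from -0.16 to 0.22, -0.15 to 0.45 and -0.003 to 0.122. Quantile normalization gave -0.069 for Atp2a2 in XinβKO/GFP against WT/GFP and -0.003 for Pln between the YAP S127A groups. Rescaled columns gave 0.043 for Hrc in XinβKO/YAP S127A against XinβKO/GFP (all genes 0.126) and 0.013 for Slc8a1 in the interaction (all genes 0.122). In edgeR and DESeq2, Slc8a1 was at -0.13 and -0.13 in XinβKO/YAP S127A against XinβKO/GFP, and Casq1 at 0.020 and 0.022 between the YAP S127A groups. Ranges with 1 library left out were -0.084 to 0.002 for Hrc in XinβKO/GFP against WT/GFP, -0.44 to 0.21 for Slc8a1 in XinβKO/YAP S127A against XinβKO/GFP, and -0.083 to 0.060 for Trdn in XinβKO/YAP S127A against WT/GFP. For WT/YAP S127A against WT/GFP they were -0.16 to 0.047 for Atp2a2, -0.054 to 0.34 for Slc8a1 and -0.071 to 0.071 for Trdn. Between the YAP S127A groups they were -0.31 to 0.24 for Casq1 and -0.045 to 0.061 for Trdn, and for the interaction -0.31 to 0.14 for Casq2 and -0.553 to 0.095 for Slc8a1. At 1.02 to 4.45 CPM, Sln rests on few reads.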
